A study of Mus musculus with 36 samples.

Results

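Day 4 wounds of the arm labelled PD were compared with unwounded skin. The comparison uses 6 PD day 4 libraries and 3 unwounded libraries, 9 of the 36 bulk RNA libraries made from mouse skin biopsies. The other libraries are PD wounds of day 2 (5) and day 12 (6) and wounds of an arm labelled P, of which the 5 from day 4 are used below. Every gene in the count files was eligible, and 20657 of 55414 held enough reads to be tested. By its title the study concerns senescent cells rich in p21, which Cdkn1a encodes, and skin repair after they are removed. The labels do not say what P and PD stand for, and they give no strain, sex, age, allele, agent or animal for any library. The unwounded libraries carry no arm label, so the effect of wounding and the effect of whatever PD denotes cannot be told apart here. Nothing says that the replicates came from separate mice, so p-values measure only the spread between these samples, which may be technical.

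Skin wounds in mice pass through inflammation, new tissue formation and remodelling. Neutrophils and then monocytes enter from blood, keratinocytes at the wound edge switch to a migratory and proliferative state, and fibroblasts lay down a provisional matrix before collagen. The protein p21 stops the cell cycle by binding cyclin-dependent kinases. It accumulates in senescent cells, which secrete cytokines and proteases, and also in cells that leave the cycle for other reasons, such as differentiating muscle and epidermal cells.

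The PD day 4 libraries held 11.81 to 41.32 M gene counts and the unwounded libraries 19.84 to 58.38 M. No replicate pair of either group agreed within sampling noise. The labelled tissue was checked with marker genes. Krt14 of basal epidermis stood at 1415 to 2812 CPM (read counts scaled to a common library size and for library composition) in unwounded skin. Adult skeletal muscle genes were abundant too: 16 of them summed to 83300 to 132000 CPM in unwounded skin and to 16300 to 91400 CPM in the wounds, so the biopsies held muscle as well as skin. The share of counts in 4 ribosomal RNA-like genes was 0.2% to 0.718% in the wounds and 0.183% to 0.212% in unwounded skin.

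PD day 4 replicates 1 and 2 stood apart from replicates 3 to 6. Their log2 CPM correlated at r = 0.982 with each other across genes, and at 0.939 to 0.967 with replicates 3 to 6. Replicates 3 to 6 correlated at 0.96 to 0.977 among themselves, which overlaps that range, so the split is not clean by this measure. Summed over 18 genes of differentiated keratinocytes, replicates 1 and 2 held 16600 and 16100 CPM, against 1420 to 4440 in replicates 3 to 6 and 11600 to 16300 in unwounded skin. The neutrophil sum ran the other way, with 5510 and 3950 CPM in replicates 1 and 2 and 8980 to 19400 in replicates 3 to 6. Mast cell genes summed to 95.8 and 125 CPM in replicates 1 and 2 and to 20.6 to 34.5 in the others, and genes of unwounded dermal fibroblasts to 2180 and 3440 against 959 to 1160. The labels give no batch that separates these libraries, and the part of this split in the results was not tested. Where a list's count of calls moved by more than 1.5 times with replicates 3 to 6 alone or replicates 1 and 2 alone, chosen after seeing the data, that count is given in most cases beside the result. In bulk tissue, fewer cells of a type and less RNA per cell cannot be told apart.

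**Figure D1:**
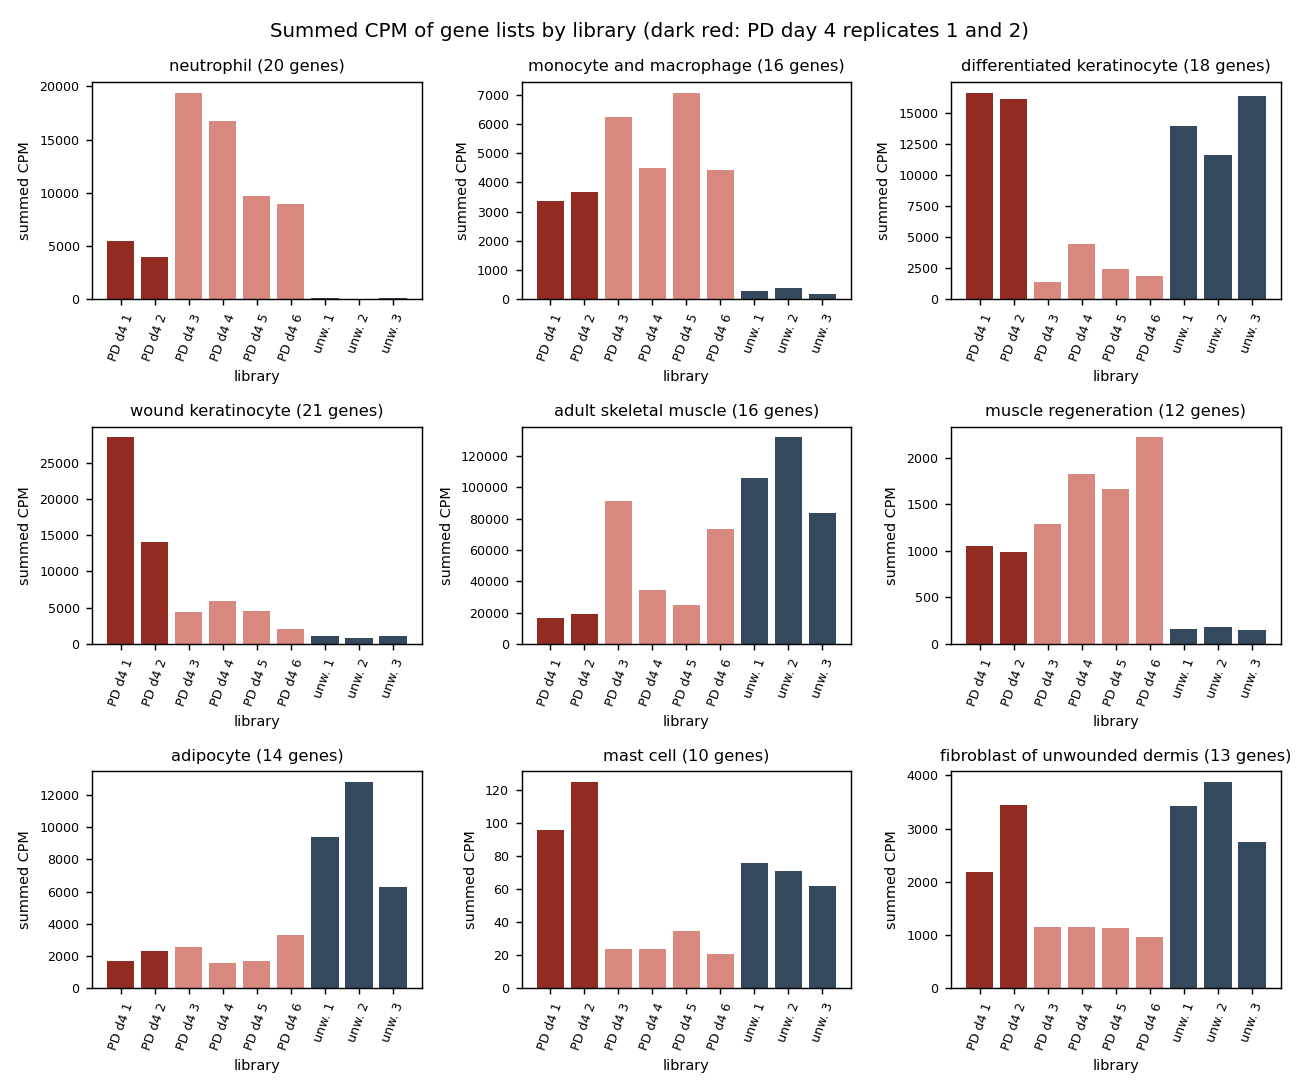
Summed CPM (vertical axes) of 9 gene lists in the 6 PD day 4 libraries (red, with replicates 1 and 2 dark) and the 3 unwounded libraries (blue), 1 bar per library. Differentiated keratinocyte genes reached 16600 and 16100 CPM in replicates 1 and 2 and at most 4440 in replicates 3 to 6, while neutrophil genes were above unwounded skin in all 6 wounds.

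Many genes differed between day 4 wounds and unwounded skin, in both directions. By edgeR's quasi-likelihood test, 5243 genes (25.4%) rose and 4494 (21.8%) fell against unwounded skin at a Benjamini-Hochberg adjusted p under 0.05. Of these, 3602 rose and 2265 fell more than 2-fold, and 1227 rose but only 167 fell more than 10-fold. The 9 libraries did not overlap between groups for 7839 of the 9737 genes called. The calls use these same libraries, so this count is no separate evidence, and the share over all tested genes was not counted. The median log2 change over all tested genes was 0.044. The 12 genes with the greatest rise were taken among called genes with at least 1 CPM on average and separate groups. Genes with a blank symbol, a Gm number or a Rik name were left out. The 12 were Retnlg, Cxcl2, Trem1, Stfa2l1, Cstdc4, S100a9, Ccl3, Cxcl3, Acod1, Fpr1, Clec4e and Cstdc6. They are neutrophil genes, chemokines and myeloid receptors or enzymes together with stefin genes. Stfa2l1, Cstdc4 and Cstdc6 belong to a cluster of near-identical copies, so the counting could have split their reads.

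**Figure D2:**
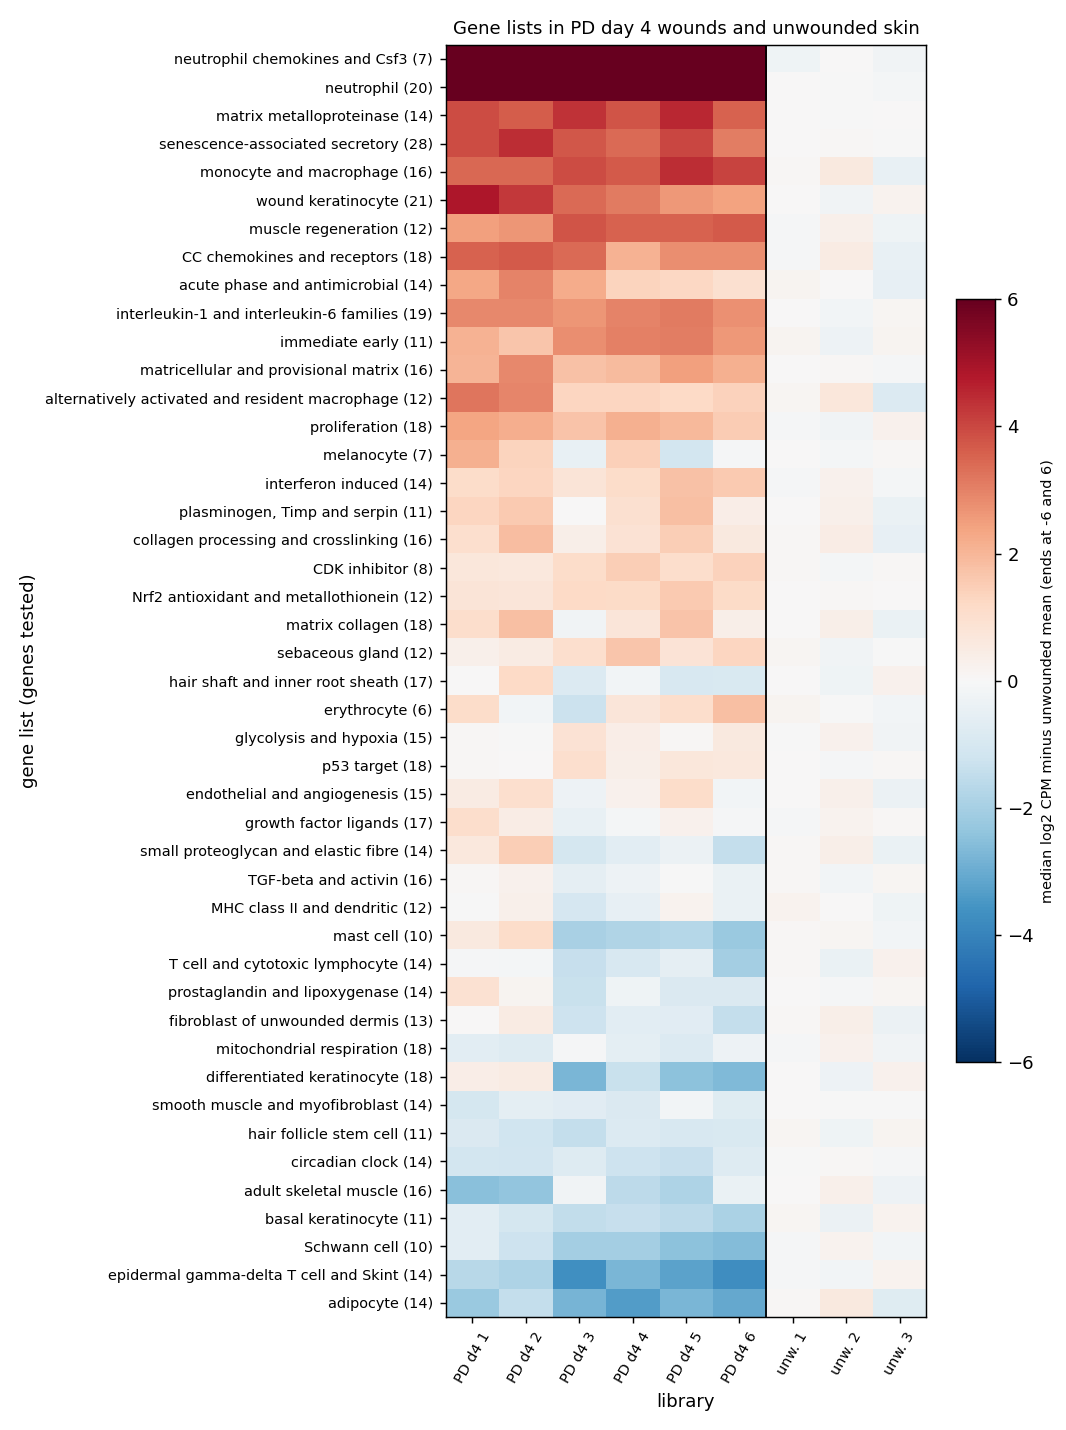
Median log2 CPM of each gene list minus its mean in unwounded skin (colour, ending at -6 and 6), with lists in rows sorted by their median change and the 6 PD day 4 and 3 unwounded libraries in columns. Neutrophil genes and chemokines are high in all 6 wounds. The adipocyte list and the epidermal gamma-delta T cell and Skint list are low in all 6. Differentiated keratinocyte genes are low in replicates 3 to 6 only.

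Cdkn1a rose 2.88-fold. The gene (ENSMUSG00000023067, chromosome 17, 29309936 to 29319701 on the plus strand of GRCm39) stood at 448, 390, 801, 823, 716 and 756 CPM in PD day 4 replicates 1 to 6 and at 244, 194 and 246 in unwounded skin. Every wound was above every unwounded library, and replicates 1 and 2 were the lowest wounds. The means were 656 ± 188 (SD, n = 6) and 228 ± 29.7 (SD, n = 3), a log2 change of 1.53 (SE 0.24, edgeR adjusted p = 4.89e-06). With replicates 3 to 6 alone the log2 change was 1.76, and with replicates 1 and 2 alone it was 0.90 (adjusted p = 0.00646).

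Of the 8 genes of cyclin-dependent kinase inhibitors tested, 5 rose and 1 fell (median log2 change 1.09), against 25.4% and 21.8% of all genes. With replicates 3 to 6 alone 2 fell. Besides Cdkn1a, the Ink4 gene Cdkn2d rose from 17.6 to 35.3 CPM on average (adjusted p = 1.54e-06) and Cdkn3, a phosphatase that acts on Cdk1 and Cdk2 and is itself a gene of dividing cells, from 1.7 to 8.77 CPM (log2 2.39, SE 0.29). Cdkn2a, which encodes p16 and Arf, was near the limit of detection. It gave 0.245, 0.45, 0.799, 0.721, 0.667 and 0.459 CPM in the wounds and 3 reads in all in unwounded skin, a ratio of 18.5 with a counting interval of 6.33 to 89.8. Cdkn1c rose to 62.3 ± 21.7 CPM from 27.5 ± 7.35, although its adjusted p was 0.0632 without unwounded replicate 3. Cdkn1b, which encodes p27, was the gene that fell, to 57.1 ± 5.84 CPM from 111 ± 10.4 (log2 -0.96, SE 0.14), with no overlap between the groups.

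Of 18 targets of p53, the transcription factor that can induce Cdkn1a, 7 rose, 4 fell and 7 did not pass (median log2 change 0.607). The share that fell was near the 21.8% of all genes, and 25.4% of all genes rose. With replicates 3 to 6 alone 10 rose, and with replicates 1 and 2 alone 4. The apoptosis genes Pmaip1 (log2 2.04, SE 0.22) and Bax (log2 1.26, SE 0.21) and the kinase Plk2 (log2 1.12, SE 0.17) rose. Trp53inp1 (log2 -1.82, SE 0.33) and Zmat3 (log2 -0.90, SE 0.19) fell, and so did Ccng1 and Sesn1, whose adjusted p values were 0.0716 without unwounded replicate 2 and 0.0538 without unwounded replicate 1. Mdm2, which encodes the ubiquitin ligase of p53, rose in the whole group (log2 0.76, SE 0.23), but stood at 60.2 and 65.9 CPM in replicates 1 and 2, 119 to 162 in replicates 3 to 6 and 60.7 to 67.3 in unwounded skin, so that its log2 change over replicates 1 and 2 alone was -0.01.

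Of 28 secreted factors known from senescent cells, 23 rose and 1 fell, and the median log2 change was 3.92. The list shares members with the chemokine, protease and growth factor lists below, and neutrophils and macrophages express many of them. Plaur, the urokinase receptor, stood at 317, 208, 968, 518, 436 and 392 CPM in the wounds and at 1.98, 2.69 and 1.36 in unwounded skin (log2 7.85, SE 0.76, adjusted p = 2.51e-09). Tnf rose to 235 ± 136 CPM from 1.07 ± 0.633, and was 73 to 81.9 CPM in replicates 1 and 2 and 235 to 399 in replicates 3 to 6. Igfbp3, a binding protein for insulin-like growth factors, was the member that fell, to 119 ± 28.7 CPM from 560 ± 147 (log2 -2.24, SE 0.31). Igfbp5, Igfbp7, Vegfa and Ereg did not pass. The neutrophil sums given above rose in the same libraries, and their part in this list was not tested.

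**Figure D3:**
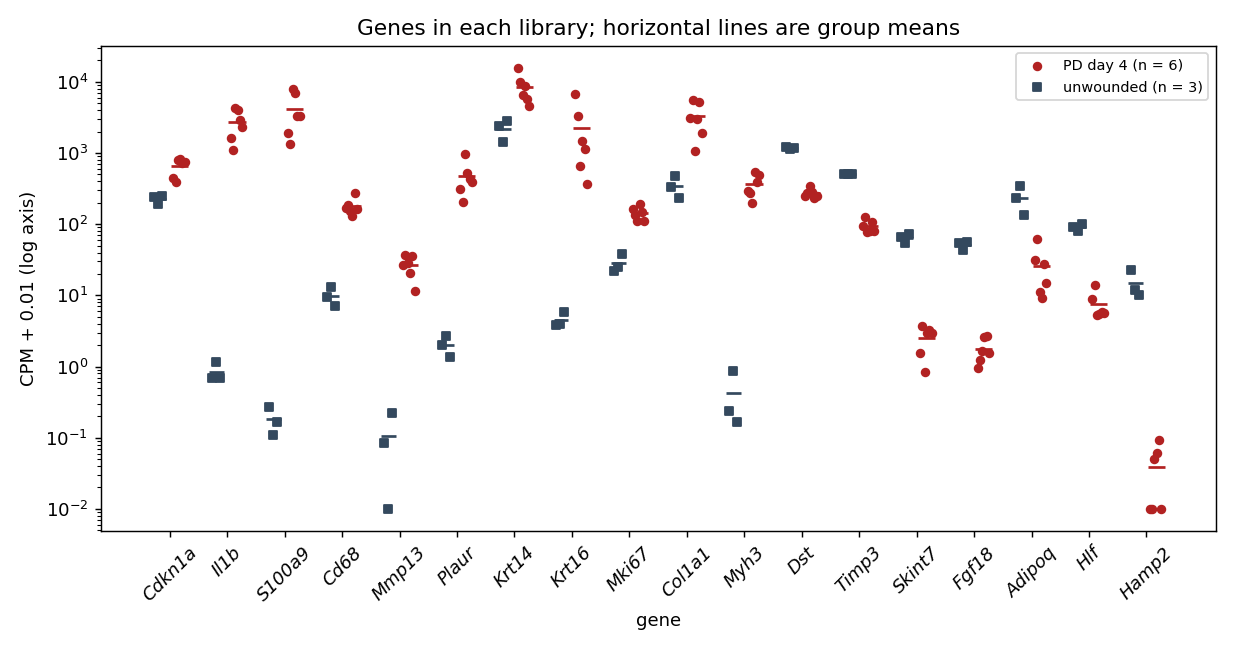
CPM plus 0.01 (log axis) of 18 genes in each PD day 4 library (red circles, n = 6) and unwounded library (blue squares, n = 3), with group means as lines. Some of the genes drawn were picked by a rule that required separate groups, so the lack of overlap in this figure is no separate result. Krt16 spans 363 to 6686 CPM among the wounds.

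Neutrophil genes rose from low levels: the list summed to 87.3 to 108 CPM in unwounded skin, of which Mmp9 made up 15.8 to 20.2. All 20 genes rose, with a median log2 change of 10.4, or 9.16 when the 5 genes without a read in unwounded skin are set at a floor of 3 reads over the 3 libraries. S100a9, a subunit of calprotectin, was 1929, 1328, 7823, 7048, 3285 and 3321 CPM in the wounds and 0.262, 0.0997 and 0.157 in unwounded skin. Replicates 3 to 6 were the higher wounds, and the rise was 24500-fold on 15 unwounded reads (log2 14.58, SE 2.32, adjusted p = 7.52e-06). Retnlg, a resistin-like gene of neutrophils, was 185, 77.5, 919, 741, 169 and 303 CPM in the wounds and had no read in unwounded skin, which makes it at least 13900-fold higher. Ly6g, the surface antigen that defines mouse neutrophils, was 6.57, 2.49, 35.2, 13.8, 8.72 and 9.64 CPM in the wounds and also without a read in unwounded skin, at least 413-fold higher. Trem1, a receptor that amplifies inflammation, was at least 11700-fold higher. Lcn2, whose product withholds iron from bacteria, rose to 224 ± 190 CPM from 0.825 ± 0.125 (log2 8.06, SE 0.78).

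The signals that call neutrophils rose with them. All 7 tested genes of neutrophil chemokines, Csf3 and Il1b rose (Il17a had too few reads to be tested). Cxcl2, a ligand of the neutrophil receptor Cxcr2, was 1290, 928, 2987, 3680, 2947 and 2040 CPM in the wounds and had 2 reads in unwounded skin, a ratio of 116000 with a counting interval of 32200 to 961000. Cxcl3 had 1 unwounded read and Csf3, the cytokine that drives neutrophil production, also 1. Their ratios were 29900 (5370 to 1180000) and 7250 (1300 to 287000). Il1b, the central cytokine of early inflammation, was 1637, 1101, 4288, 4035, 2932 and 2342 CPM in the wounds against 0.673, 1.16 and 0.681 (log2 11.63, SE 1.98). For Cxcl2, Cxcl3, Csf3 and Il1b alike, replicate 2 was the lowest wound.

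Monocyte and macrophage genes rose throughout, by less than neutrophil genes: all 16 rose with a median log2 change of 3.83. Cd68, a lysosomal protein of macrophages, was 171, 187, 152, 128, 276 and 166 CPM in the wounds and 9.57, 13.1 and 7.02 in unwounded skin (log2 4.18, SE 0.58), with replicates 1 and 2 inside the range of the others. The receptor adaptor Tyrobp (log2 4.80, SE 0.66) and Aif1 (log2 3.55, SE 0.44) also rose. Cd14, the endotoxin co-receptor, rose to 2145 ± 1161 CPM from 3.66 ± 0.582 (log2 9.19, SE 1.28).

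Genes of alternatively activated and resident macrophages did not move as a block: 6 of 12 rose, 1 fell and 5 did not pass (median log2 change 2.11). Trem2, a lipid-sensing receptor, rose from 0.608 to 41.5 CPM on average (log2 6.01, SE 0.73), and Gpnmb from 13.4 to 86 CPM. Spp1, which encodes osteopontin, was 596 and 569 CPM in replicates 1 and 2, 1294 to 3534 in replicates 3 to 6 and 4.67 to 13.2 in unwounded skin. Retnla, a product of macrophages under interleukin-4, fell to 13.6, 31.8, 4.75, 3.86, 1.17 and 5.69 CPM from 122, 163 and 56.6 (log2 -3.49, SE 0.99, and -4.30 without PD day 4 replicate 2). Its call ended with replicates 1 and 2 alone (log2 -2.32, edgeR adjusted p = 0.208). Cd163, Folr2, Lyve1, Apoe and F13a1 did not pass.

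Of 18 CC chemokines and their receptors, 15 rose, with a median log2 change of 3.15. Ccl3 and Ccl4, which attract monocytes, had 2 and 6 reads in unwounded skin. Ccl3 was 241, 185, 590, 849, 601 and 551 CPM in the wounds, a ratio of 25000 (6930 to 207000). Ccr1 rose from 1.71 to 254 CPM on average, with a log2 change of 7.15 that became 8.23 without unwounded replicate 2. Ccl27a, the skin-homing chemokine made by resting keratinocytes, was the member that fell, to 17.9 ± 8.71 CPM from 88 ± 18.6 (log2 -2.30, SE 0.46).

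Interleukin-1 and interleukin-6 family genes rose in 13 of 19 cases (median log2 change 3.01), and the other 6 did not pass. Osm, which encodes oncostatin M, was 124, 78.9, 426, 239, 192 and 150 CPM in the wounds and 0.12 to 0.336 in unwounded skin (log2 9.80, SE 1.44). Il6 was 1.65 to 7.59 CPM and had no unwounded read, at least 135-fold higher. The receptor genes Il1r1 and Osmr and the alarmins Il18 and Il33 did not pass.

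Interferon-induced genes rose less, with 7 of 14 higher, 1 lower and a median log2 change of 1.48. With replicates 1 and 2 alone 3 rose. Isg15 rose to 49.3 ± 17.4 CPM from 5.59 ± 1.01 (log2 3.13, SE 0.64) and Irf7, a regulator of type I interferon, to 62.6 ± 15.9 from 15.6 ± 2.72. Cxcl9, a target of interferon-gamma that attracts T cells, was the lower one (log2 -1.34), and its adjusted p rose to between 0.054 and 0.252 without PD day 4 replicate 3 or 6 or without unwounded replicate 2 or 3. T cell and cytotoxic genes had low counts in both groups: 5 of 14 fell, 2 rose and 7 did not pass (median log2 change -0.32). With replicates 1 and 2 alone 1 fell. Ctla4 fell to 0.671 ± 0.321 CPM from 3.36 ± 1.31, and Prf1, which encodes perforin, to 0.848 ± 0.545 from 5.87 ± 2.72. Cd4, which some myeloid cells also express, rose to 3.15 CPM from 1.04, with an adjusted p of 0.052 to 0.0955 without PD day 4 replicate 1 or unwounded replicate 2 or 3. Gzmb rose to 0.866 CPM on average on 4 unwounded reads. Of 12 MHC class II and dendritic cell genes, 1 rose, the integrin Itgax (log2 2.99, SE 0.60), which macrophages and neutrophils can also express.

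In a list of 14 genes of epidermal T cells, the Skint family and Langerhans cells, 13 fell, with a median log2 change of -2.47. The T cell genes were Trdc, Trgc1, Trgv5 and Trdv4, and the Langerhans cell gene was Cd207. All of these fell, as did the Skint genes except Skint3, which did not pass. Skint7 was 1.55, 3.67, 0.839, 2.96, 3.21 and 2.94 CPM in the wounds and 67, 55.1 and 73.1 in unwounded skin (log2 -4.68, SE 0.54, adjusted p = 5.4e-08). Trdc, the constant segment of the delta chain, fell to 2.76 ± 0.592 CPM from 13.7 ± 4.58. Skint5 was 5.1 and 5.68 CPM in replicates 1 and 2, 0.36 to 0.747 in replicates 3 to 6 and 31.1 to 41.8 in unwounded skin. With replicates 1 and 2 alone, 6 of the 14 passed. Skint genes are near-identical copies, and reads could have been shared among them.

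Proteases that open the matrix rose strongly. Of 14 matrix metalloproteinase and related genes, 12 rose (median log2 change 4.96) and Mmp2 and Mmp11 did not pass. The stromelysin Mmp3 was 87.5, 102, 44.5, 32.5, 146 and 35.8 CPM in the wounds and 7.33, 7.6 and 4.56 in unwounded skin (log2 3.52, SE 0.80). Mmp10 was 3.8, 6.3, 10.5, 3.81, 30.3 and 5.69 CPM and had no unwounded read, at least 310-fold higher. The collagenase Mmp13 was 11.4 to 36.4 CPM against 6 unwounded reads in all (log2 8.53, SE 1.85, and 7.63 or 9.78 without unwounded replicate 2 or 3). The gelatinase Mmp9 was 124 and 148 CPM in replicates 1 and 2, 285 to 446 in replicates 3 to 6 and 15.8 to 20.2 in unwounded skin (log2 4.01, SE 0.83). Mmp8, stored in neutrophil granules, was 10.4 and 11.4 CPM in replicates 1 and 2, 22.1 to 78.9 in the others and 4 unwounded reads in all. Mmp2, made by resting fibroblasts, had a log2 difference of 1.28 (SE 0.74, adjusted p = 0.155), with overlapping groups.

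Many of these genes carry a match to the binding sequence of AP-1, the Fos and Jun dimer, just upstream of the transcription start. The sequence TGANTCA was searched on both strands in the 300 bases around the start of each gene (250 before, 50 after). It lay in 8 of the 14 promoters of the metalloproteinase list (57.1%) and in 7.14% of 21770 promoters of the genome. The 8 were Mmp3, Mmp9, Mmp10, Mmp12, Mmp13, Mmp19, Mmp1a and Mmp1b. At least Mmp3, Mmp10 and Mmp13 of these are neighbours on chromosome 9, so the promoters of this list may not be independent cases. The TGANTCA matches are printed for Mmp3, Mmp10, Mmp13 and Mmp9 and for the keratinocyte gene Sprr1b, because all 5 rose and hold the sequence close to their start. Each window has 130 bases before and 30 bases from the canonical GENCODE start, on the gene's own strand of GRCm39, with the match in capitals. The windows are chr9:7445692-7445851 (Mmp3, plus), chr9:7502223-7502382 (Mmp10, plus), chr9:7272384-7272543 (Mmp13, plus), chr2:164790009-164790168 (Mmp9, plus) and chr3:92346067-92346226 (Sprr1b, minus). They cover the proximal promoter and the start of exon 1.
Mmp3: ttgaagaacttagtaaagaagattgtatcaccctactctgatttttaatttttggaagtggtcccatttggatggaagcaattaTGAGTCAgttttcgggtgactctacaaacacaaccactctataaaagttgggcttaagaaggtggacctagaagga
Mmp10: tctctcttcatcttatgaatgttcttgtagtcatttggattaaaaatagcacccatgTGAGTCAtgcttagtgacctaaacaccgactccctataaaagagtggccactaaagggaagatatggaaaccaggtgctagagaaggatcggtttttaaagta
Mmp13: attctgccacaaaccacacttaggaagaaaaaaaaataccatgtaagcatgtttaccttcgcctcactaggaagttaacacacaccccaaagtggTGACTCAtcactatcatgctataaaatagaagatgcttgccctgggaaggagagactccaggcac
Mmp9: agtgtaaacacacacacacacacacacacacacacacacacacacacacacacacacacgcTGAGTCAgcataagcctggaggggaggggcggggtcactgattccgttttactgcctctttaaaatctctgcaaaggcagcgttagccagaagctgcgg
Sprr1b: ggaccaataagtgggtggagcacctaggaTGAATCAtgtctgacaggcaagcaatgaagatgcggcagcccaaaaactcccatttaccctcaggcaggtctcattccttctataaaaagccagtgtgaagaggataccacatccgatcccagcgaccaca
Counted from the first transcribed base as +1, the match began at position -46 in Mmp3, -73 in Mmp10, -35 in Mmp13, -69 in Mmp9 and -101 in Sprr1b. A match is a description of the letters and not a bound site. It lay in 8 of 21 promoters of wound keratinocyte genes (38.1%) and in 7 of 18 of differentiated keratinocyte genes (38.9%), a list that did not rise as a group. Plaur, described above, has one at -36. Among the 11 immediate early genes, which include the AP-1 subunits themselves, 9 rose with a median log2 change of 2.6. Junb was 700, 581, 1968, 1646, 1324 and 1117 CPM in the wounds and 82.9, 56.4 and 78.4 in unwounded skin (log2 4.08, SE 0.43, adjusted p = 9.73e-09), and Fosl1, the Fos family member of wound-edge keratinocytes, rose from 0.639 to 38.1 CPM on average. Egr3 and Myc did not pass.

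Inhibitors of these proteases diverged. Timp1 was 118, 286, 237, 170, 366 and 181 CPM in the wounds and 1.12 to 1.52 in unwounded skin (log2 7.44, SE 0.76). Timp3, which is bound to matrix, fell to 95.9, 128, 79, 79.5, 108 and 81 CPM from 514, 516 and 507 (log2 -2.43, SE 0.34), with all 6 wounds far below the narrow unwounded range. Timp4 fell to 1.61 ± 0.789 CPM from 38.6 ± 11.5, and Timp2 did not pass. In the whole list of 11 plasminogen activator, Timp and serpin genes, 5 rose and 3 fell, beside 25.4% and 21.8% of all genes. Serpine2 fell from 89.2 to 44.7 CPM on average.

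In the epidermis, keratins and envelope genes of the wound edge rose while genes of the resting basal layer fell. Of 21 wound keratinocyte genes, 17 rose, with a median log2 change of 3.82. Krt16, a keratin of activated epidermis, was 6686, 3303, 660, 1454, 1155 and 363 CPM in the wounds and 3.89, 3.99 and 5.77 in unwounded skin (log2 8.97, SE 1.76, and 8.26 without PD day 4 replicate 1). Replicates 1 and 2 were the highest wounds, and the lowest was still above unwounded skin. Sprr1b, a cornified envelope precursor, was 1176 and 521 CPM in replicates 1 and 2, 33 to 130 in replicates 3 to 6 and 0.105 to 0.224 in unwounded skin (log2 10.97, and 10.01 without PD day 4 replicate 1). Krt6a, Krt6b and the Sprr2 genes also rose, but each belongs to a set of close copies whose reads can be shared. Slpi, a protease inhibitor that neutrophils and keratinocytes make, ran the other way among the wounds, with 197 and 178 CPM in replicates 1 and 2 and 475 to 883 in the others, against 0.105 to 0.224 in unwounded skin. Krt17, which hair follicles express at rest, did not pass (log2 0.95, SE 0.55, adjusted p = 0.156).

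Of 11 basal keratinocyte genes, 8 fell, 1 rose and 2 did not pass (median log2 change -1.3). With replicates 1 and 2 alone 4 fell. Dst, which encodes the hemidesmosome linker dystonin, was 252, 277, 343, 281, 231 and 248 CPM in the wounds and 1212, 1141 and 1183 in unwounded skin (log2 -2.12, SE 0.18, adjusted p = 1.74e-10). All 6 wounds lay far below the unwounded libraries, with replicates 1 and 2 among the rest. Col17a1, the transmembrane collagen of hemidesmosomes, fell to 536 ± 148 CPM from 2763 ± 648, and Krt15, a keratin of resting basal and bulge cells, to 614 ± 175 from 4555 ± 896. Trp63, the regulator of stratified epithelium, fell from 292 to 119 CPM. Krt14 was the gene that rose, to 15680, 10120, 6571, 8761, 5681 and 4610 CPM from 2365, 1415 and 2812 (log2 1.96, SE 0.43). Its partner Krt5 was 4045 to 7143 CPM in the wounds and 4310 to 7868 in unwounded skin (log2 -0.17, SE 0.32, adjusted p = 0.688).

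Differentiated keratinocyte genes followed the split between libraries. Over all 6 wounds, 5 of 18 fell and 2 rose, beside 21.8% and 25.4% of all genes. Over replicates 3 to 6 alone, 8 fell and 1 rose. Over replicates 1 and 2 alone, 0 fell and 2 rose. Krt10, the keratin of the spinous layer, was 3945 and 4306 CPM in replicates 1 and 2, 165 to 580 in replicates 3 to 6 and 3750 to 4920 in unwounded skin. Krt77, a keratin of resting suprabasal epidermis, was 834 and 1372 CPM in replicates 1 and 2, 45.7 to 88.2 in the others and 3356 to 4416 in unwounded skin (log2 -3.21, SE 0.90, and -4.11 without PD day 4 replicate 2). Rptn, which encodes repetin of the granular layer, was 291 and 188 CPM in replicates 1 and 2, 15.8 to 86.3 in replicates 3 to 6 and 0.262 to 0.678 in unwounded skin, so it rose in every wound (log2 7.68, SE 1.95, and 7.04 without PD day 4 replicate 1). Casp14, the caspase of cornification, also rose (log2 1.64), with an adjusted p of 0.0517 to 0.0972 when any unwounded library was left out.

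Genes of the hair follicle stem cell region fell in 7 of 11 cases (median log2 change -0.826), and in 4 with replicates 1 and 2 alone. Fgf18, which holds follicles at rest, was 0.939, 1.21, 1.64, 2.6, 2.67 and 1.56 CPM in the wounds and 54.8, 43 and 56.1 in unwounded skin (log2 -4.85, SE 0.64). Lgr6 fell from 91.7 to 30.3 CPM and Lrig1 from 147 to 68.4. Krt79, a keratin of the follicle opening, rose from 243 to 679 CPM, but its adjusted p was 0.0556 to 0.0977 when any unwounded library was left out. Hair shaft and inner root sheath genes were near the floor in both groups. In that list 1 of 17 rose, Shh, from 6 unwounded reads to 0.959 to 3.74 CPM (log2 4.60, SE 0.82, and 3.77 or 5.32 without unwounded replicate 2 or 3). Of 12 sebaceous gland genes 6 were higher and 2 lower (median log2 change 0.907), beside 25.4% and 21.8% of all genes. Elovl3, an elongase for sebum lipids, was 164, 184, 291, 437, 262 and 270 CPM in the wounds and 13.4, 9.95 and 17.4 in unwounded skin (log2 4.31, SE 0.55). The wax synthase Awat1 and the cholesterol esterifier Soat1 rose as well. Scd3 fell (log2 -2.45, SE 0.59), and Fasn fell with an adjusted p of 0.05 to 0.135 without PD day 4 replicate 3, 5 or 6 or unwounded replicate 1 or 2.

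Cell division genes rose evenly. All 18 proliferation genes rose, with a median log2 change of 2.02. Mki67 was 164, 134, 112, 193, 148 and 112 CPM in the wounds and 22.1, 24.8 and 38.6 in unwounded skin (log2 2.34, SE 0.31). Birc5, which encodes survivin, was 64.3, 58.5, 60.2, 74.4, 59.9 and 42.8 CPM against 7.14, 5.01 and 7.65 (log2 3.19, SE 0.21, adjusted p = 1.66e-12). Cdk1 (log2 2.89, SE 0.23) and the mitotic kinase Plk1 (log2 2.69, SE 0.23) rose by similar amounts. The list summed to 1210 and 1080 CPM in replicates 1 and 2, 694 to 1100 in replicates 3 to 6 and 240 to 320 in unwounded skin, and all 18 genes passed with either set of replicates alone. Cdkn1a and these genes rose in the same libraries, and bulk counts do not show whether they rose in the same cells.

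Of 14 smooth muscle and myofibroblast genes 3 rose, near the 25.4% of all genes, 6 fell and 5 did not pass (median log2 change -0.546). Lrrc15, a membrane protein of myofibroblasts, was 33.8, 80.5, 15.7, 78.5, 144 and 44.8 CPM in the wounds and 1.83, 1.81 and 2.88 in unwounded skin (log2 4.94, SE 0.75). Cthrc1, secreted by the same kind of cell, was 13.4 to 65.1 CPM against 0.299 to 1.15. The other rising member was Tnc, which encodes the matrix protein tenascin C. Lmod1, an actin nucleator of smooth muscle, fell to 13.5 ± 3.2 CPM from 59.7 ± 4.94 (log2 -2.14, SE 0.36). Acta2, which marks myofibroblasts and vessel walls alike, was 143 to 362 CPM in the wounds and 245 to 260 in unwounded skin (log2 -0.19, SE 0.34, adjusted p = 0.669), and Postn did not pass either.

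Col1a1 was 3062, 5601, 1054, 3023, 5269 and 1935 CPM in the wounds and 333, 470 and 231 in unwounded skin (log2 3.27, SE 0.76, adjusted p = 0.000791), and Col1a2 rose with it (log2 2.67, SE 0.79). Of the 18 collagens 5 rose, a share near that of all genes, Col17a1 of the epidermis fell and 12 did not pass (median log2 change 0.939), among them Col3a1 and the type IV and VI chains. With the DESeq2 Wald test 8 collagens rose and with limma-voom 9, and with replicates 1 and 2 alone 8. Of 16 genes of collagen processing or crosslinking, 7 rose by edgeR (median log2 change 1.13) and 14 by limma-voom, including the lysyl oxidases Lox (log2 3.08, SE 0.84) and Loxl3 (log2 2.67, SE 0.67). Provisional matrix genes were more uniform, with 10 of 16 higher and 1 lower (median log2 change 2.19). Thbs1 was 1090 and 694 CPM in replicates 1 and 2, 1692 to 3209 in replicates 3 to 6 and 62.7 to 65.6 in unwounded skin (log2 4.94, SE 0.78). The hyaluronan receptor Cd44 (log2 2.12, SE 0.25) and the fibronectin receptor chain Itga5 (log2 2.56, SE 0.43) rose. Ccn2 fell (log2 -0.79), with an adjusted p of 0.069 and 0.114 without unwounded replicate 1 or 3.

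TGF-beta family ligands moved in both directions. Tgfb1 was 130, 137, 147, 149, 206 and 140 CPM in the wounds and 29.7, 25.6 and 27.8 in unwounded skin (log2 2.45, SE 0.23, adjusted p = 1.05e-09). Inhba, the activin A subunit, rose from 2.52 to 42 CPM on average (log2 4.07, SE 0.65). Bmp4 fell to 3.87 ± 1.63 CPM from 32.4 ± 11.9 and Bmp2 to 10.6 ± 1.59 from 47.5 ± 10.8, and Tgfb2, Tgfb3 and the receptors Tgfbr1 and Tgfbr2 did not pass. The antagonist genes Fst, Fstl3 and Grem1 fell as well. In all, 2 of 16 rose and 5 fell (median log2 change -0.09), beside 25.4% and 21.8% of all genes. Of 17 growth factor ligands 4 rose and 3 fell, shares near those of all genes (median log2 change 0.27). The epidermal growth factor receptor ligands Areg (log2 2.90, SE 0.55) and Hbegf (log2 1.85, SE 0.41) rose. Besides Fgf18, Fgf10 and Fgf2 fell. The call of Fgf10 ended without unwounded replicate 2 (adjusted p = 0.0722), and that of Fgf2 without the same library or PD day 4 replicate 4 or 5 (0.0501 to 0.283).

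Few adult muscle genes passed by edgeR, while genes of newly forming fibres rose. Of 16 adult muscle genes 3 fell, a share near the 21.8% of all genes, and the other 13 did not pass (median log2 -1.25). Those that fell were Pvalb, Atp2a1 and Casq1. With limma-voom 12 fell, with replicates 1 and 2 alone 6 and with replicates 3 to 6 alone 1. Pvalb, the calcium buffer of fast fibres, was 106 and 157 CPM in replicates 1 and 2, 310 to 1088 in replicates 3 to 6 and 2660 to 3974 in unwounded skin (log2 -2.68, SE 0.83). Atp2a1 and Casq1 lost their call when any of 7 and 6 libraries was left out, with adjusted p values of 0.0513 to 0.101 and 0.0603 to 0.108. The libraries concerned were PD day 4 replicates 1, 2, 4 and 5 and all 3 unwounded replicates for Atp2a1, and the same ones except unwounded replicate 3 for Casq1.

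Genes of regenerating muscle rose in 9 of 12 cases, with a median log2 change of 3.36. Myh3, the embryonic myosin that new fibres make, was 298, 273, 201, 536, 396 and 498 CPM in the wounds and 0.224, 0.858 and 0.157 in unwounded skin (log2 9.62, SE 1.10, adjusted p = 4.56e-08, and 10.88 without unwounded replicate 2). Mymk, the membrane protein that lets myoblasts fuse, was 51.7, 51.1, 84.3, 92.9, 86.9 and 101 CPM on 19 unwounded reads (log2 8.66, SE 0.99). Chrng, the fetal subunit of the acetylcholine receptor, was 29.7 to 70.1 CPM against 0.0374 to 0.399 (log2 7.86, SE 0.95, and 9.99 without unwounded replicate 2). Myl4, an embryonic myosin light chain, was 144 to 365 CPM against 3.83 to 6.42 (log2 5.60, SE 0.72). Actc1 rose from 48 to 186 CPM, with an adjusted p of 0.052 to 0.0621 when any unwounded library was left out. The satellite cell factors Pax7, Myf5 and Myod1 did not pass. For Mymk, Chrng and Myl4, replicates 1 and 2 were the lowest wounds.

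The E-box CAGCTG, a sequence that myogenic factors of the Myod1 family bind, is its own reverse complement and was searched in the same windows. It lay in 6 of 12 promoters of the regeneration list (50%) and in 14.9% of all promoters. The windows of Chrng (chr1:87133362-87133521, plus) and Myl4 (chr11:104467934-104468093, plus) are shown because both genes rose and hold the motif within the printed range. Each again has 130 bases before and 30 from the start.
Chrng: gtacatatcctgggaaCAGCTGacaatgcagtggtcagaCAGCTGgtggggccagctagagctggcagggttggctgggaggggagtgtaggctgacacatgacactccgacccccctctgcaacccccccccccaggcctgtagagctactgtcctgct
Myl4: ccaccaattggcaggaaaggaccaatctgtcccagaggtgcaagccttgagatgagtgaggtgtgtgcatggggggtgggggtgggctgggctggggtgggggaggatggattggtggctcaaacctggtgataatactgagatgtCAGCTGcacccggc
The E-boxes began at -114 and -91 in Chrng and at 17 in Myl4, inside its first exon. Again these are letters in a window and not bound sites. The E-box was about as frequent in the adipocyte list, whose genes fell, with 6 of 14 promoters (42.9%).

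Fat genes fell together: all 14 adipocyte genes fell (median log2 -2.49), although only 6 passed with replicates 1 and 2 alone. Adipoq, which encodes adiponectin, was 31.6, 61.7, 11.1, 9.27, 27.8 and 15.1 CPM in the wounds and 235, 341 and 136 in unwounded skin (log2 -3.18, SE 0.75). Lep, the leptin gene, was 8.94 and 8.69 CPM in replicates 1 and 2, 0.679 to 2.34 in the others and 42.5 to 109 in unwounded skin. Lpl, the lipase that loads fat cells, fell by 2.06 on the log2 scale, with a log2 change of -1.40 without unwounded replicate 2. Schwann cell genes fell in 9 of 10 cases, among them Mbp of myelin (57.6 ± 27.2 CPM from 168 ± 27.3) and the lineage factor Sox10 (7.54 ± 4.37 from 25.6 ± 1.58). With replicates 1 and 2 alone 0 of them passed. Ncam1 was the exception, at 42, 53.1, 73.2, 82.7, 92.8 and 73.8 CPM in the wounds and 9.61, 10.6 and 8.54 in unwounded skin (log2 2.86, SE 0.39). Besides Schwann cells, regenerating muscle fibres and cytotoxic lymphocytes are known to express it. Of 15 endothelial genes 3 rose, beside 25.4% of all genes. They were the tip cell genes Apln (log2 2.40, SE 0.71) and Angpt2 (log2 1.63, SE 0.49), and Plvap. The adjusted p of Plvap was 0.0673 to 0.125 without PD day 4 replicate 1, 2 or 5 or any unwounded replicate. The endothelial genes Pecam1, Cdh5 and Kdr did not pass.

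Some metabolic and stress genes passed and others did not. Of 15 glycolysis and hypoxia genes 5 rose and 2 fell, beside 25.4% and 21.8% of all genes. Among those that rose were Eno1 (828 ± 75.7 CPM from 254 ± 5.88) and the glucose transporter Slc2a1 (322 ± 68.4 from 83.6 ± 16.8). Pdk1 and Bnip3 fell. The call of Bnip3 ended without unwounded replicate 2 (adjusted p = 0.121), and that of Pdk1 without the same library or PD day 4 replicate 2, 5 or 6 (0.0537 to 0.415). Gapdh, Ldha and Hk2 did not pass. Of 18 mitochondrial respiration genes 9 fell and 0 rose, led by Sdha (log2 -0.96, SE 0.20) and Ndufs1 (log2 -0.91, SE 0.19). Muscle is rich in these enzymes. The sum of adult muscle genes was 16300 to 34200 CPM in replicates 1, 2, 4 and 5 and 91400 and 73500 in replicates 3 and 6, against 83300 to 132000 in unwounded skin, and its part in the fall of these genes was not tested. Of 12 Nrf2 target and metallothionein genes 8 rose. Slc7a11, the cystine importer that feeds glutathione synthesis, was 95.4, 56.5, 204, 151, 189 and 144 CPM in the wounds and 0.0524 to 0.12 in unwounded skin (log2 10.36, SE 0.86, adjusted p = 1.29e-10). Of 14 prostaglandin and lipoxygenase genes 3 rose and 4 fell, beside 25.4% and 21.8% of all genes. Ptgs2, the inducible cyclooxygenase, rose from 1.46 to 246 CPM, while Hpgd, which degrades prostaglandins, fell from 17.4 to 7.56. The call of Hpgd ended with replicates 1 and 2 alone (log2 -0.59, edgeR adjusted p = 0.26). Pla2g4a, Alox12e and Hpgds fell too, and Ptgs1 and Ptges did not pass.

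Circadian clock genes fell in 10 of 14 cases and rose in 0. Hlf was 9.02, 13.9, 5.31, 5.46, 5.88 and 5.6 CPM in the wounds and 92.5, 79.6 and 101 in unwounded skin (log2 -3.60, SE 0.29, adjusted p = 6.13e-11). Nr1d1, which encodes Rev-erb alpha, fell to 94.2 ± 19.3 CPM from 463 ± 21.8, and Nr1d2 and Cry2 fell by 1.35 and 1.06 on the log2 scale. Clock, Per1, Cry1 and Ciart did not pass. The labels give no time of day for any biopsy, so time of day and wounding cannot be told apart for these genes.

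By the same rule as for the rises, the 12 genes with the greatest fall were Hamp2, Slc23a1, Mrgprb11-ps, Odf3l2, Kcnj16, Tgm7, Gabrp, Upk3b, Chat, Il22ra2, Fgf18 and Skint7. Hamp2, a hepcidin gene known for its expression in liver and exocrine pancreas, was 22.9, 11.9 and 10.1 CPM in unwounded skin, and 0, 0, 0.04, 0.0515, 0.0834 and 0 in the wounds (log2 -8.69, SE 0.98, a 411-fold fall). Il22ra2, a soluble decoy for interleukin-22, was 1.84, 2.53, 0.919, 0.824, 0.584 and 0.367 CPM in the wounds against 45, 33.8 and 36 (log2 -4.99, SE 0.55). Slc23a1, a vitamin C transporter of epithelia, was 0.163 and 0.0346 CPM in replicates 1 and 2, 0 in replicates 3 to 6 and 3.07 to 3.66 in unwounded skin. Tgm7, a transglutaminase, fell to 0.686 ± 0.501 CPM from 25.8 ± 4.46. Mrgprb11-ps is annotated as a pseudogene of the Mrgprb family and may share reads with its copies. The mast cell receptor of that family, Mrgprb2, fell to 1.03 ± 0.74 CPM from 13.9 ± 0.858, while 8 of 10 mast cell genes did not pass (median log2 change -0.252). The 2 that fell were a share near the 21.8% of all genes. With replicates 3 to 6 alone 4 mast cell genes fell.

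Whether PD and P wounds differed on day 4 was tested in the same model. No gene passed by edgeR (0%), where 2369 genes had an unadjusted p under 0.05 and the smallest adjusted p was 0.0808. The DESeq2 Wald test called 182 genes and limma-voom 2074. With PD day 4 replicates 3 to 6 alone edgeR called 1395, and with replicates 1 and 2 alone 0. These subsets were chosen after seeing the data, so their counts cannot show whether the arms differ. Without P day 4 replicate 1, 2, 4 or 5 it called 27, 27, 31 and 26, and without PD day 4 replicate 2 it called 1. Cdkn1a averaged 656 CPM in PD and 495 ± 134 (SD, n = 5) in P wounds, a log2 difference of 0.41 (SE 0.19, adjusted p = 0.414). The P libraries were themselves uneven: their neutrophil sums ran from 3710 to 13600 CPM and their differentiated keratinocyte sums from 4100 to 32700. Hair shaft and inner root sheath genes summed to 11000 CPM in P day 4 replicate 3 and to 30 to 41.5 in the other P libraries, and without that library edgeR called 0. Timp3 was lower in PD (95.2 CPM) than in P wounds (196 CPM) by a log2 difference of 1.04 in size (SE 0.31), with an unadjusted p of 0.00189 and an adjusted p of 0.271. 

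Compared with PD wounds of day 2, 551 genes (2.67%) were higher on day 4 and 329 (1.59%) lower. This split depends on scaling: by library totals alone 343 were higher and 614 lower, with a median log2 difference over all genes of -0.0861 in place of 0.017. The total of 880 fell to 430 without PD day 4 replicate 4 and to 442, 481 and 435 without PD day 2 replicate 1, 2 and 3, and was 2098 with PD day 4 replicates 3 to 6 alone. Muscle regeneration led the rise, with 6 of 12 genes higher. Myh3 averaged 4.91 CPM on day 2 and 367 on day 4 (log2 difference 6.22, edgeR adjusted p = 2.21e-05), and Mymk 7.59 and 78 (log2 3.36, adjusted p = 0.00125). Actc1 was 4.08 CPM on day 2, below its 48 CPM in unwounded skin, and 186 on day 4. Lrrc15 averaged 3.47 CPM on day 2 and 66.2 on day 4 (log2 4.25, adjusted p = 9.42e-05). Cdkn1a was 316 ± 81.7 CPM on day 2 (n = 5), so it was higher on day 4 by 1.05 on the log2 scale (adjusted p = 0.00259), and Cdkn1c rose from 11.8 to 62.3 CPM. Of 14 adipocyte genes 13 were lower on day 4. Cfd, which encodes adipsin, averaged 802 CPM on day 2, 104 on day 4 and 684 in unwounded skin. Neutrophil, chemokine and metalloproteinase lists had 0 calls between the days, and S100a9 averaged 2010 and 4122 CPM (log2 1.04, adjusted p = 0.599).

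Between day 4 and day 12, 3244 genes (15.7%) rose and 3224 (15.6%) fell. By library totals alone the split was 5204 to 2230, with the median log2 difference of all genes moving from -0.00309 to 0.198. Inflammatory genes were lower by day 12: 17 of 20 neutrophil genes, all 7 neutrophil chemokine and Csf3 genes and 10 of 16 macrophage genes fell. Il1b averaged 2722 CPM on day 4 and 35.8 on day 12 (log2 -6.25, adjusted p = 6.85e-05), and S100a9 4122 and 33.7. Ly6g had no read on day 12. Of 21 wound keratinocyte genes 17 fell, Krt16 from 2270 to 209 CPM on average. Cdkn1a fell to 351 ± 53.2 CPM (n = 6), a log2 difference of -0.90 (adjusted p = 0.000244). Hair and pigment genes were higher on day 12. All 17 hair shaft and inner root sheath genes were higher on day 12, with a median log2 difference of 7.96, and all 7 melanocyte genes. Krt25 of the inner root sheath was 0 to 10.8 CPM on day 4, with 10.8 in replicate 2 alone, and averaged 1233 on day 12. Dct, a pigment enzyme, averaged 6.27 and 219 CPM. Of 18 collagens 10 were higher on day 12, while of 16 provisional matrix genes 2 were higher and 5 lower, and of 16 collagen processing genes 0 were higher and 1 lower. Col1a1 averaged 3324 CPM on day 4 and 10790 on day 12, and Lrrc15 66.2 and 339. Proliferation genes changed little in number, with 2 of 18 higher and 1 lower on day 12. Hlf, Timp4 and Fgf18 averaged 10.6, 1.73 and 2.35 CPM on day 12, beside 7.52, 1.61 and 1.77 on day 4, and all 3 comparisons missed the threshold.

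**Figure D4:**
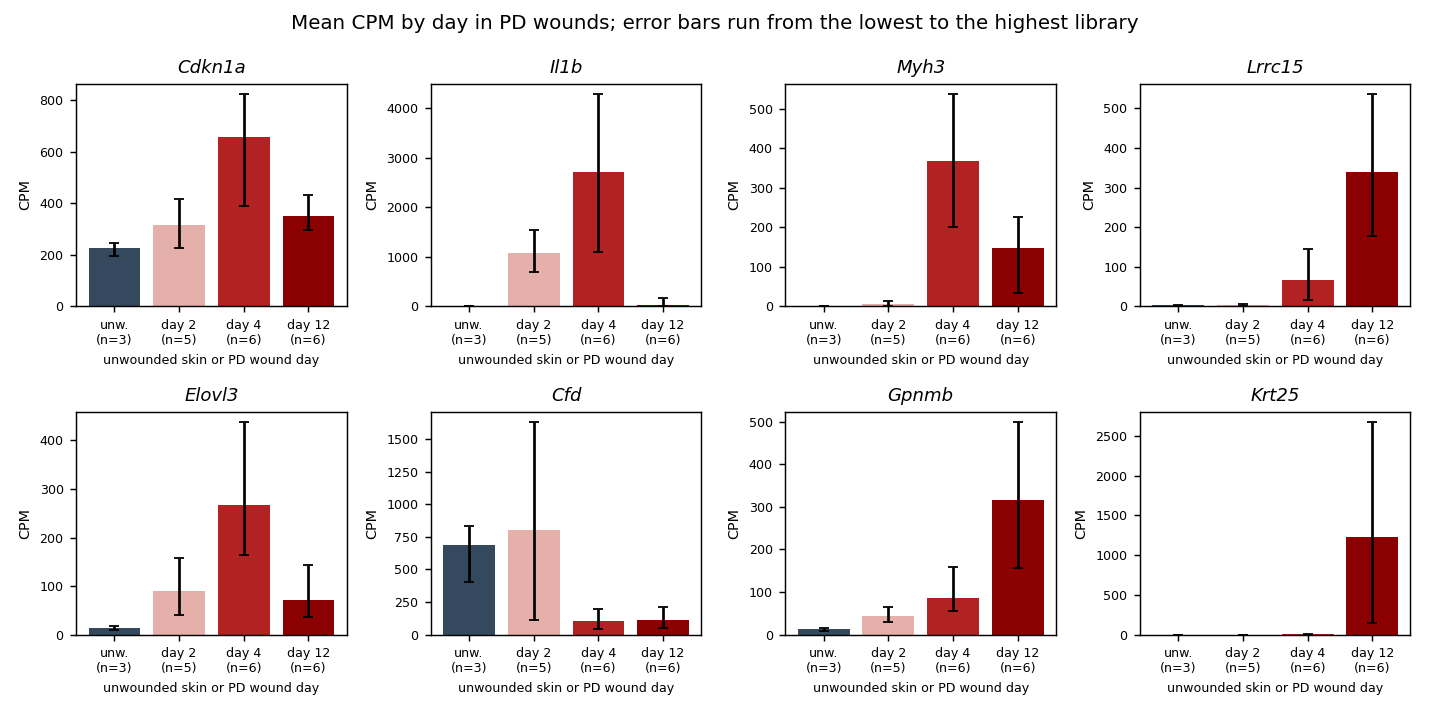
Mean CPM (vertical axes, linear) of 8 genes in unwounded skin and in PD wounds of day 2, day 4 and day 12, with error bars from the lowest to the highest library and n under each bar. Cdkn1a, Il1b, Myh3 and Elovl3 have their highest mean on day 4 (656, 2722, 367 and 268 CPM), whereas Lrrc15, Gpnmb and Krt25 have it on day 12, and Cfd is lower on day 4 and day 12 than on day 2.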

How the data were processed

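Bulk RNA was sequenced from mouse skin biopsies with a stranded poly(A) kit, per the labels' protocols. The authors deposited raw read counts per gene for each library. Per the submitters' processing notes, Trimmomatic, HISAT2 2.1.0, SAMtools 1.9 and HTSeq were used with GRCm39; the strand setting of the counting is not given in the sources used here.

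Groups were taken from the labels. All 36 libraries entered one model with a mean per group (edgeR 4.0.16 in R 4.3.3, quasi-likelihood, robust, TMM scaling), after a filter at a minimum count of 10 that left 20657 genes. The threshold was a Benjamini-Hochberg adjusted p of 0.05 over those genes. An SE is the log2 change divided by the root of the F statistic. CPM are scaled by TMM. Where 3 or fewer unwounded reads were seen, a bound (3 reads over the group) or an exact Poisson 95% interval is given, which covers counting error only. Lists were described by counts and medians, with no set test. The model was also run on counts simulated from its own fitted spread, which cannot show whether that spread or the scaling suits these libraries.

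The members and gene lists were chosen with earlier results of these data known. Named genes are Cdkn1a, the 12 largest changes each way (mean of at least 1 CPM, separate groups), up to 4 called genes per list by adjusted p, called genes against the list's majority, and up to 4 not called; further genes were named for their role after their values were seen. The 12 each way leave out genes with a blank symbol, a Gm number or a Rik name. Alternatives used DESeq2 1.42.0, limma 3.58.1, other scalings and filters, a replicate block and fewer libraries. Promoters are from GRCm39 with GENCODE M39 starts; an NF-kB motif that had been planned was not searched. A few members of the gene lists are not reported here.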

Additional observations from a re-analysis of the deposited data

Results flagged for a closer look

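In 13 of the 167 genes followed, 1 PD day 4 library lay far above the other 5 (gap over range above Dixon's 95% critical value). For normally distributed values that cut marks about 1 in 20 groups, counting both ends. Here CPM were used without a log and all 13 marks were at the high end, so that rate does not apply directly. In replicate 5 these were Gpnmb (159 CPM), Mmp10 (30.3), Tgfb1 (206) and Tnc (1140). In replicate 2 they were Bmp4 (7.14 CPM), Apln (33.7), Gabrp (1.59) and Krt25 (10.8). In replicate 3 they were Ly6g (35.2 CPM), Mmp8 (78.9) and Odf3l2 (0.639), and in replicate 1 Mbp (110) and Slc23a1 (0.163).

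PD wounds differed between days in the test of the difference itself (edgeR). Between day 2 and day 4 the test called 880 genes, and between day 4 and day 12 it called 6468. Cdkn1a was among both, with log2 differences of 1.05 (day 4 minus day 2) and -0.90 (day 12 minus day 4).

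In the P wounds of day 2, which enter no comparison above, Cdkn1a averaged 372 CPM, and every library was above every unwounded library.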

How the results depend on the processing

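The direction and call of Cdkn1a against unwounded skin held under all settings run, with log2 changes of 0.90 (PD day 4 replicates 1 and 2 alone, chosen after seeing the data) to 1.76 (replicates 3 to 6 alone, likewise). The counts against unwounded skin stayed within 1.5 times of 5243 higher and 4494 lower under the other scalings, tools, filters and designs, with 4536 to 5422 higher and 3291 to 4496 lower when 1 library was left out. With replicates 1 and 2 alone 2936 genes were lower, a fit with fewer samples. Against P day 4, where edgeR called 0, the DESeq2 Wald test called 182, limma-voom 2074 and replicates 3 to 6 alone 1395, and leaving out 1 library gave 0 to 31. Against PD day 2, where edgeR called 880, the Wald test called 1647, limma-voom 4118, no filter on low counts 527, only the groups compared 381, replicates 3 to 6 alone 2098 and replicates 1 and 2 alone 228, with 430 to 1141 when 1 library was left out. Between day 4 and day 12, where 6468 were called, replicates 1 and 2 alone gave 3634. The cause of these differences was not tested.

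Of 159 named genes that passed against unwounded skin, 142 kept direction and call under every other scaling, tool, filter and design and with each library left out. Genes named without a value were not followed unless they passed. Mdm2 had a log2 change of -0.01 with replicates 1 and 2 alone. Among genes that did not pass, the Krt25 log2 change was -0.45 to 6.04 when 1 library was left out and at -1.08 with replicates 3 to 6 alone, Dct at -0.03 with limma-voom and -0.17 with replicates 3 to 6 alone, and Krt5 at -0.34 to 0.08 when 1 library was left out. Others passed under some settings. The Krt10 log2 change was -2.85 (adjusted p = 0.000239) with limma-voom and -3.70 (0.00168) with replicates 3 to 6 alone, and the Krt17 log2 change was 1.88 (0.0212) with replicates 1 and 2 alone.

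PD day 4 and unwounded libraries share replicate numbers 1 to 3. Deviations from the group means of same-numbered libraries correlated at -0.0158, 0.0286 and -0.0654, so the numbers were not read as pairs. With the replicate block 5256 genes were higher and 4828 lower, 1173 were called against PD day 2, and the log2 change of Cdkn1a was 1.38. The block also raised the collagen genes called higher from 5 to 9, those of collagen processing from 7 to 13 and the adult muscle genes called lower from 3 to 7. It gave a call to Mmp2 (log2 1.72, edgeR adjusted p = 0.00298) and Krt10 (log2 -2.14, 0.00685). Genes with few unwounded reads carry wide counting intervals, and the shallowest wound, with 11.81 M counts, limits low genes most.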
